A study of Mus musculus with 12 samples.

Results

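Tumor necrosis factor (TNF) and its relatives signal through a family of cell surface receptors, some of which carry a death domain. Tnfrsf1a, the main receptor of soluble TNF-α, assembles a membrane complex with Traf2 and Ripk1 that leads to NF-κB, while Fas and Tnfrsf10b, the receptors of Fas ligand and of TRAIL, recruit the adaptor Fadd and through it caspase-8, the initiator protease of death receptor apoptosis. Cflar encodes c-FLIP, a caspase-8 relative without protease activity of its own that sits in the same complex and restrains or tunes the protease. TNF-α is an inflammatory cytokine that can lead to survival or to death of a cell, depending on which of these complexes forms.

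Tnfrsf1a, Tnfrsf1b, Fas, Tnfrsf12a, Tnfrsf10b, Fadd, Casp8, Cflar, Ripk1 and Traf2 were taken by gene symbol from the probe annotation, 10 genes in all. A probe set, the group of oligonucleotides that reads one transcript, names 9 of them alone, and all 9 passed the filter on dim signals, as did 13145 of the 18193 genes on the array that have such a probe set. Ripk1 is not named in the probe annotation and was not analysed here. The 9 genes have 17 probe sets, of which 13 were tested, and the one with the highest mean over the 12 arrays stands for its gene. TNF-α in the medium is part of the protocol for one stage, so the question was how its receptors and their first partners stood in that stage beside the others.

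RNA came from 4 stages of mouse embryonic stem cells of the CGR8 line, grown without feeder cells, with 3 arrays per stage that the study's methods describe as independent samplings. ES-LIF(+) cells were kept undifferentiated with leukemia inhibitory factor (LIF), and ES-LIF(-) cells had spent 48 h without it. Cardiopoietic cells (CP) and cardiomyocytes (CM) both followed stimulation with the same mixture of growth factors and interleukins, and both were enriched on Percoll density gradients, at lower densities for CP. The medium of CP held 3% serum and TNF-α at 30 ng/ml, over 5 days, whereas that of CM held 20% serum over 9 days and no TNF-α is named for it. TNF-α, serum, time, gradient and cell stage therefore differ together between CP and CM and cannot be told apart. Between the stem cells and CP or CM, the growth factor mixture, medium, time, gradient and cell stage also differ together and cannot be told apart. All the cells come from a single line.

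Each array was scaled by the authors to a common trimmed mean, which left the median probe set at a signal of 101 to 111 on the ES-LIF(+) arrays, 104 to 110.2 on ES-LIF(-), 129 to 136 on CP and 128 to 144 on CM. The stage labels were checked against 6 markers of each cell type. The summed signal of the cardiomyocyte markers was 94055 to 107940 on the CM arrays, 1274 to 1483 on CP and 437 to 589.9 on ES-LIF(+). In CP, 2 of the 6 were called higher than in ES-LIF(+), 0 lower and 4 not called. Those higher were Tnnt2 (mean 514 in CP, 9.83 in ES-LIF(+)) and Myl7 (455 and 122). Myl2 and Ryr2, a ventricular myosin light chain and the calcium release channel, had mean signals under 100 in CP. Fibroblast and mesenchyme markers summed to 68860.2 to 74275 in CP, 33839 to 35107 in CM and 764.5 to 1226 in ES-LIF(+). The samples are bulk RNA, in which fewer cells of a type and less RNA per cell cannot be told apart.

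Cflar and Casp8 lie next to each other on mouse chromosome 1 on the same strand, with only the long noncoding RNA gene Gm39646 between them in RefSeq. Both were higher in CP and CM on their representative probe sets, while the Cflar probe set 1449317_at went the other way. The promoters of Cflar, Casp8 and Tnfrsf1a, the main TNF-α receptor, are shown here. Each runs from 250 bases before to 50 bases after the RefSeq start in build GRCm38.p6, 5′ to 3′. Capitals mark the general form of an NF-κB site, GGGNNNNNCC, searched on both strands. The windows are chr6:125349473-125349772 on the plus strand for Tnfrsf1a, chr1:58711241-58711540 on the plus strand for Cflar and chr1:58802252-58802551 on the plus strand for Casp8.
Tnfrsf1a: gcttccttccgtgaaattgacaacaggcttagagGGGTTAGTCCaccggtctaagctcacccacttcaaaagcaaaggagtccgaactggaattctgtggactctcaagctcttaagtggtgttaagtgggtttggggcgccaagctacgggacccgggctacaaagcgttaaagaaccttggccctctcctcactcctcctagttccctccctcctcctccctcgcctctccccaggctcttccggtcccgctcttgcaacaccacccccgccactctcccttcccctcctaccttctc
Cflar: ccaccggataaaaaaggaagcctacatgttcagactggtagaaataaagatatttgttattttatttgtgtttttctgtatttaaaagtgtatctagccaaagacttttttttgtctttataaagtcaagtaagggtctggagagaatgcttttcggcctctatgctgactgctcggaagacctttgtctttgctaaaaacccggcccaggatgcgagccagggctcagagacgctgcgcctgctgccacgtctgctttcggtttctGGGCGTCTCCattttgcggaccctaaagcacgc
Casp8: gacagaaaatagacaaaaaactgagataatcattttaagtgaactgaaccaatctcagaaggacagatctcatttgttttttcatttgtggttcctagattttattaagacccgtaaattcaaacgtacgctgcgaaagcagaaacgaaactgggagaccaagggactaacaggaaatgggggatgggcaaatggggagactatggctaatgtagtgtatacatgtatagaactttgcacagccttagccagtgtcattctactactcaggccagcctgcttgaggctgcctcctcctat
Tnfrsf1a and Cflar each held 1 match and Casp8 held 0. Of the 8 genes described here that had a promoter entry, 7 held this general form, as did 50.8% of all 32851 promoter windows of the same length. The stricter κB consensus occurred in 0 of the 8 windows and in 8.5% of all windows. The GC box GGGCGG stood in 5 of the 8 windows, those of Fadd, Fas, Tnfrsf12a, Tnfrsf1b and Traf2, and in 35.7% of all windows, and the letters TATAAA stood in 1, that of Cflar, and in 13.6% of all. The general form can overlap a GC box. Such matches describe the letters in these windows only.

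Tnfrsf1a, the receptor through which soluble TNF-α mainly acts, was several-fold higher in CP and CM than in the stem cells. Its signal was 404, 404 and 296 on the ES-LIF(+) arrays and 478, 357 and 320.4 on the ES-LIF(-) arrays. It was 2333, 1942 and 2261 on the CP arrays and 1632, 1669.9 and 1611 on the CM arrays. Every CP array stood above every CM array, and every CM array above all 6 stem cell arrays. The difference in log2(signal + 16) between CP and ES-LIF(+) was 2.52 (SE 0.15, adjusted p = 4.15e-09), a 5.75-fold ratio, and between CP and ES-LIF(-) it was 2.47 (adjusted p = 5.22e-09). CM exceeded ES-LIF(+) by 2.12 (adjusted p = 9.13e-09). Between CP and CM the difference was 0.40 (95% interval 0.09 to 0.72, adjusted p = 0.0467), a 1.32-fold ratio that lies inside the 1.5-fold limit and so was not called, and the adjusted p ranged from 0.00446 to 0.145 over 25 alternative settings.

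Tnfrsf1b, the other TNF receptor, which has no death domain and responds mainly to membrane-bound TNF-α, showed no call in any comparison. Its signals were 262, 232 and 267 in ES-LIF(+), 252, 255 and 142 in ES-LIF(-), 218, 192 and 239 in CP, and 164, 216 and 195 in CM. The CM arrays lay below the ES-LIF(+) arrays without overlap, by 0.38 log2 units (adjusted p = 0.142), and the other groups overlapped. The difference between CP and CM was 0.17 (95% interval -0.30 to 0.63), and the other probe set of the gene, 1448951_at, had no call either. The CM value reads -0.70 once the arrays are median centred (adjusted p = 0.0124) and -0.72 with quantile normalization (adjusted p = 0.0107), both of which are calls. The adjusted p of this difference ran from 0.0107 to 0.975 over all 25 alternatives.

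Tnfrsf12a, the receptor of the TNF relative TWEAK, was the only gene of the 9 called between CP and CM, and it was lower in CP. Signals were 857, 1065 and 1377 in ES-LIF(+) and 919, 769 and 1152 in ES-LIF(-). They were 4057, 2538 and 3772 in CP and 5883, 6814 and 5751 in CM. CM stood highest, CP between and both stem cell stages lowest, and of these levels only the stem cell stages overlapped with each other. CP fell short of CM by a difference of -0.85 (SE 0.19, adjusted p = 0.00272), so the signal was 1.81-fold higher in CM. Against ES-LIF(+), CP rose by 1.64 (adjusted p = 5.39e-06) and CM by 2.49 (adjusted p = 2.43e-08). The probe set 1418572_x_at of the same gene gave -0.92 between CP and CM (adjusted p = 0.00012) and 2.03 between CP and ES-LIF(+). The ligand gene Tnfsf12 shares its probe set with another gene and was not analysed here.

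Fas, the receptor of Fas ligand, was read below the array median on all 6 stem cell arrays and above it on all 6 CP and CM arrays. Fas thus passed the filter on dim signals only through CP and CM, and could not have been called lower there. Its signals were 35.7, 44.6 and 10.1 in ES-LIF(+), 9.8, 12.8 and 63.2 in ES-LIF(-), 219.8, 159 and 257 in CP, and 416, 301 and 384 in CM. CP exceeded ES-LIF(+) by 2.37 log2 units (SE 0.43, adjusted p = 3.35e-04) and ES-LIF(-) by 2.53 (adjusted p = 1.80e-04), and CM exceeded ES-LIF(+) by 3.13 (adjusted p = 1.35e-05). Because the stem cell signals are dim, the size of the rise depends on the pseudocount, and the CP value against ES-LIF(+) ran from 1.55 to 2.98 over the alternatives. All 3 CP arrays lay below all 3 CM arrays, a difference of -0.76 (95% interval -1.68 to 0.15, adjusted p = 0.201) that was not called. It is called with a pseudocount of 64 (-0.65, adjusted p = 0.0489) and with only these 6 arrays in the fit (adjusted p = 0.0168), in a range of adjusted p from 0.0168 to 0.428 over its 24 alternatives.

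Tnfrsf10b, the mouse receptor of TRAIL, was dim and modestly higher in CP and CM than in the stem cells. The signals were 87.0, 118 and 33.5 in ES-LIF(+), 122, 103 and 109.6 in ES-LIF(-), 190.4, 214 and 139 in CP, and 206, 214.5 and 205 in CM. The 6 CP and CM arrays lay above the 6 stem cell arrays, while CP and CM overlapped. The rise over ES-LIF(+) was 1.14 in CP (SE 0.31, adjusted p = 0.00753) and 1.35 in CM (adjusted p = 0.00163). Against ES-LIF(-) the CP difference was 0.61 (adjusted p = 0.121) and was not called, although it is called without ES-LIF(+) replicate 3, the array with the signal of 33.5 (adjusted p = 0.0337, in a range from 0.0337 to 0.403 over 24 alternatives). CP and CM differed by -0.21 (95% interval -0.88 to 0.46). A further probe set of the gene, 1421296_at, was too dim to be tested.

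**Figure D1:**
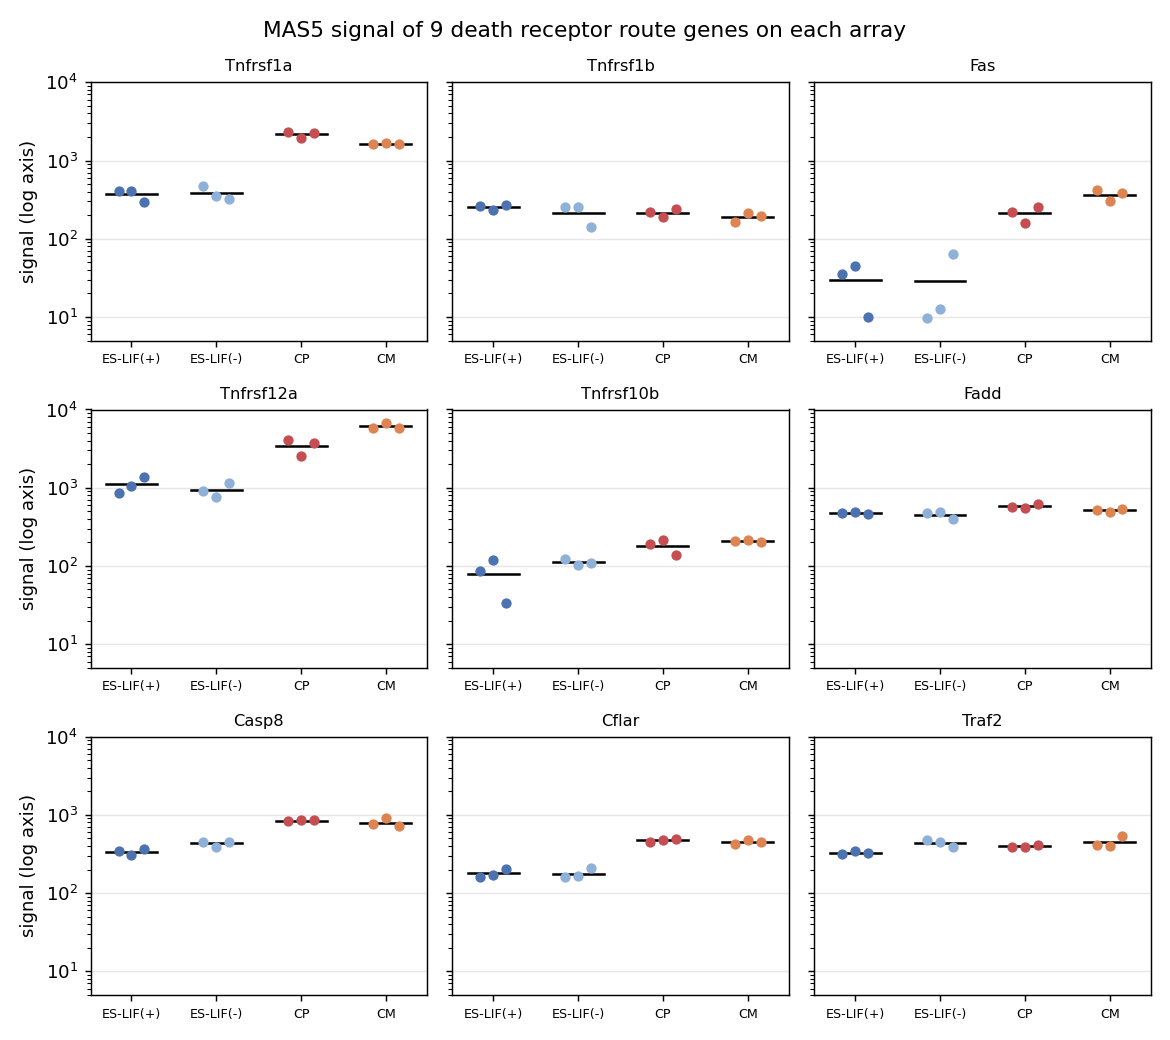
Signal of the representative probe set of each of the 9 genes on the 12 arrays, on a log axis, with 3 arrays (points) and their mean (line) per stage. Tnfrsf1a, Fas, Tnfrsf12a, Tnfrsf10b, Casp8 and Cflar stand higher on all CP and CM arrays than on the stem cell arrays, and Tnfrsf1a reaches 2333 in CP while Tnfrsf12a reaches 6814 in CM.

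Fadd, the adaptor that links the receptors to caspase-8, moved little. Its signals were 481, 486 and 467 in ES-LIF(+), 475, 492 and 392.5 in ES-LIF(-), 562, 555 and 613 in CP, and 519.8, 489 and 541 in CM. The CP arrays stood above those of every other stage without overlap, but by less than 1.5-fold each time. The difference was 0.26 against ES-LIF(+) (adjusted p = 0.0774), 0.34 against ES-LIF(-) (adjusted p = 0.0236) and 0.15 against CM (95% interval -0.09 to 0.40, adjusted p = 0.35). After median centring the first of these values reads -0.02, so its direction rests on the scaling of the arrays. The other Fadd probe set, 1446499_at, was too dim to be tested.

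Casp8, the initiator caspase of the route, was higher in CP and CM than in the stem cells. The array signals were 344.5, 308 and 366 in ES-LIF(+), 457, 383 and 452 in ES-LIF(-), 827, 851 and 857 in CP, and 754, 918 and 719 in CM. No stem cell array reached the lowest CM array, and the ES-LIF(-) arrays stood above the ES-LIF(+) arrays. CP exceeded ES-LIF(+) by 1.28 (SE 0.12, adjusted p = 8.68e-07), a 2.43-fold ratio, and ES-LIF(-) by 0.95 (adjusted p = 1.46e-05). CM exceeded ES-LIF(+) by 1.19 (adjusted p = 6.97e-07). CP and CM overlapped, with a difference of 0.09 (95% interval -0.17 to 0.35, adjusted p = 0.628). The step from ES-LIF(+) to ES-LIF(-) was 0.33 (adjusted p = 0.104). Casp8 has a single probe set, as do Tnfrsf1a, Fas and Traf2, so no other one checks these genes.

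Cflar, which encodes c-FLIP, rose by a similar amount on its representative probe set, 1424996_at. Signals there were 162, 172 and 204 in ES-LIF(+), 162, 164 and 207 in ES-LIF(-), 451.5, 481 and 487 in CP, and 428, 472 and 446 in CM. The 6 CP and CM arrays stood apart from the 6 stem cell arrays, and within each of these sets the stages overlapped. CP exceeded ES-LIF(+) by 1.33 (SE 0.15, adjusted p = 4.83e-06), a 2.51-fold ratio, and ES-LIF(-) by 1.35, and CM exceeded ES-LIF(+) by 1.25. Between CP and CM the difference was 0.07 (95% interval -0.25 to 0.40, adjusted p = 0.759).

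The probe sets of Cflar did not move alike. On 1425686_at, CP rose over ES-LIF(+) by 1.67 (adjusted p = 2.27e-04) and CM by 2.25 (adjusted p = 6.98e-06), from signals of 37.7, 105 and 112 in ES-LIF(+) to 329, 258 and 268 in CP and 402.5, 484 and 409.7 in CM. On 1449317_at the direction was the opposite. Its signals were 329.7, 261 and 246 in ES-LIF(+), 413, 369 and 343 in ES-LIF(-), 111, 169 and 261 in CP, and 302, 168 and 306 in CM. CP was lower than ES-LIF(-) there by a difference of -1.06 (SE 0.27, adjusted p = 0.00426) and differed from ES-LIF(+) by -0.65 (adjusted p = 0.061, not called). The remaining pair of Cflar probe sets, 1425687_at and 1453482_at, was too dim to be tested. The gene is known to give several splice forms, and which of them each probe set reads was not tested.

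**Figure D2:**
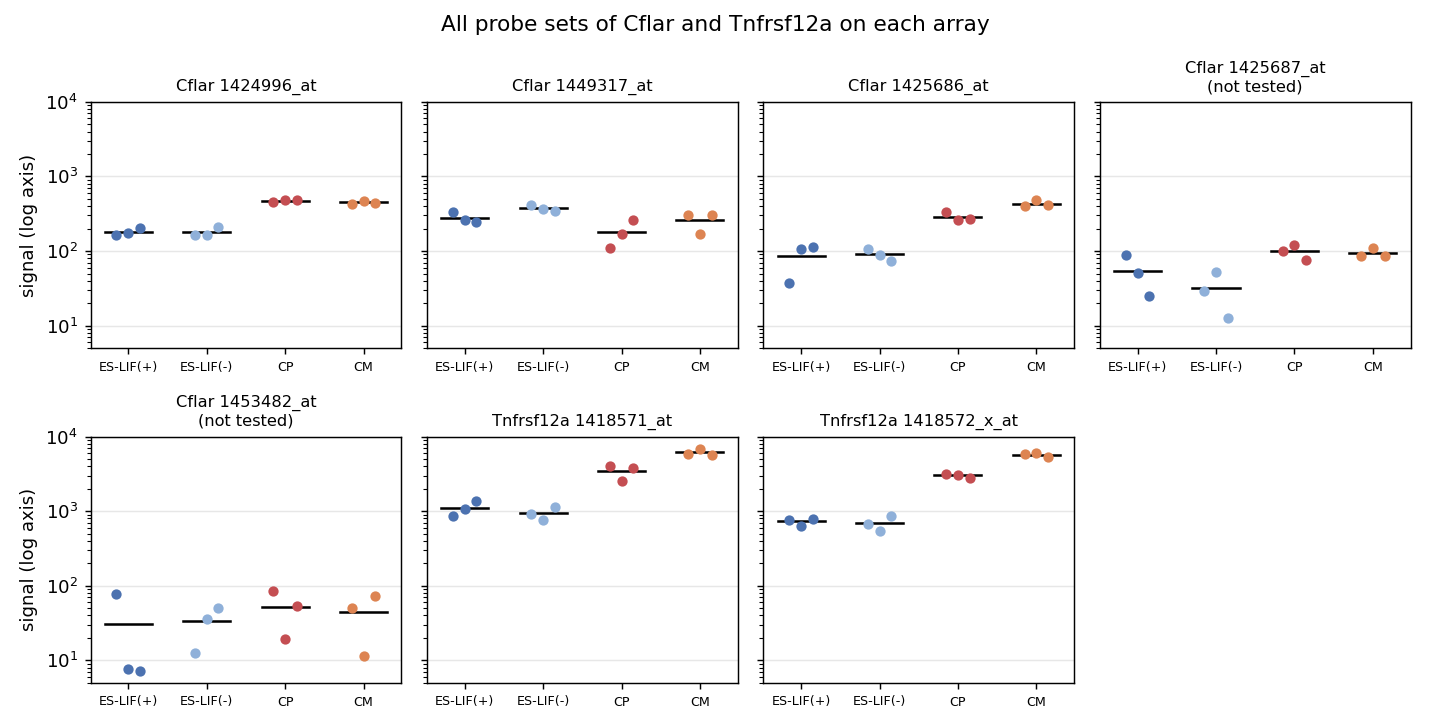
Signal of all 5 probe sets of Cflar and of the pair for Tnfrsf12a on each of the 12 arrays, on a log axis, with the stage mean as a line and untested probe sets marked. Probe sets 1424996_at and 1425686_at of Cflar are higher on the CP and CM arrays, 1449317_at falls to 111 on one CP array, and both Tnfrsf12a probe sets order the stages in the same way.

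Traf2, the adaptor and ubiquitin ligase that Tnfrsf1a uses to reach NF-κB and the stress kinases, was not called anywhere. Its signals were 316, 348 and 325.5 in ES-LIF(+), 472, 446.5 and 393 in ES-LIF(-), 383, 394 and 418 in CP, and 414, 396 and 532 in CM. The ES-LIF(+) arrays were the lowest and did not overlap with any other stage, and the remaining stages overlapped. Over ES-LIF(+) the difference was 0.26 in CP (adjusted p = 0.135), 0.41 in CM (adjusted p = 0.0178, under 1.5-fold) and 0.39 in ES-LIF(-) (adjusted p = 0.0869). The CP value turns to -0.02 after median centring.

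Counted together, 6 of the 9 genes were called higher in CP than in ES-LIF(+) and 0 were called lower, where 18.7% and 13.3% of all 13145 tested genes were called higher and lower. A call needs an adjusted p under 0.05 in limma's moderated linear model and a fold above 1.5. At an unadjusted p under 0.05, 7 of the 9 were higher and 0 lower. No share of all genes was computed for this looser rule, so the shares above are not its background. Against ES-LIF(-), 5 of the 9 were called higher and 0 lower, with 18.2% and 14.5% of all genes. Between CM and ES-LIF(+) the counts were 6 higher and 0 lower, with 25.7% and 23.9% of all genes, and the 6 were the same genes as in CP, namely Tnfrsf1a, Fas, Tnfrsf12a, Tnfrsf10b, Casp8 and Cflar. Both comparisons share the ES-LIF(+) arrays. Each of these counts of higher genes includes Fas, which passed the filter only through CP and CM arrays. Each also includes Cflar through 1424996_at, while 1449317_at of the same gene was called higher in none of these comparisons. The 9 genes were chosen with earlier results of these data known. The study's own table of cardiovascular development genes upregulated in CP lists Tnfrsf1a, Tnfrsf12a and Casp8. These counts are therefore not independent of the choice of genes.

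The median difference over the 9 genes was 1.28 between CP and ES-LIF(+), 0.95 between CP and ES-LIF(-) and 1.25 between CM and ES-LIF(+), beside medians of 0.04, 0.01 and 0.06 over all tested genes. Median centring of the arrays lowers the CP and CM values against ES-LIF(+) by 0.28 and 0.32 for all genes, and takes the share of calls that are higher from 58.4% to 30.6% for CP and from 51.7% to 33.2% for CM. The counts of 6, 5 and 6 genes called higher were the same under median centring and quantile normalization.

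Between CP and CM, 0 of the 9 genes were called higher and 1, Tnfrsf12a, was called lower in CP, where 10.4% and 9.04% of all genes were called higher and lower. At an unadjusted p under 0.05, a looser rule without a computed share of all genes, Tnfrsf1a was higher and Tnfrsf12a lower. The median over the 9 genes was 0.07, against 0.04 over all genes. Without a fold limit Tnfrsf1a would be called higher as well. A missed threshold does not show that the stages were alike, and the intervals given above bound what these 3 arrays per stage can tell.

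Withdrawal of LIF for 48 h produced no call among the 9 genes, with 4.0% of all genes called higher and 3.68% lower. At an unadjusted p under 0.05, 2 genes were higher in ES-LIF(-) and 0 lower, without a computed share of all genes for this rule. The median over the 9 genes was -0.02. Over the 4 stages together, 6 of the 9 genes passed limma's moderated F test, as did 73.1% of all genes. The 6 were those called in CP and CM, and Tnfrsf1b, Fadd and Traf2 did not pass it (adjusted p = 0.437, 0.0732 and 0.0516).

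**Figure D3:**
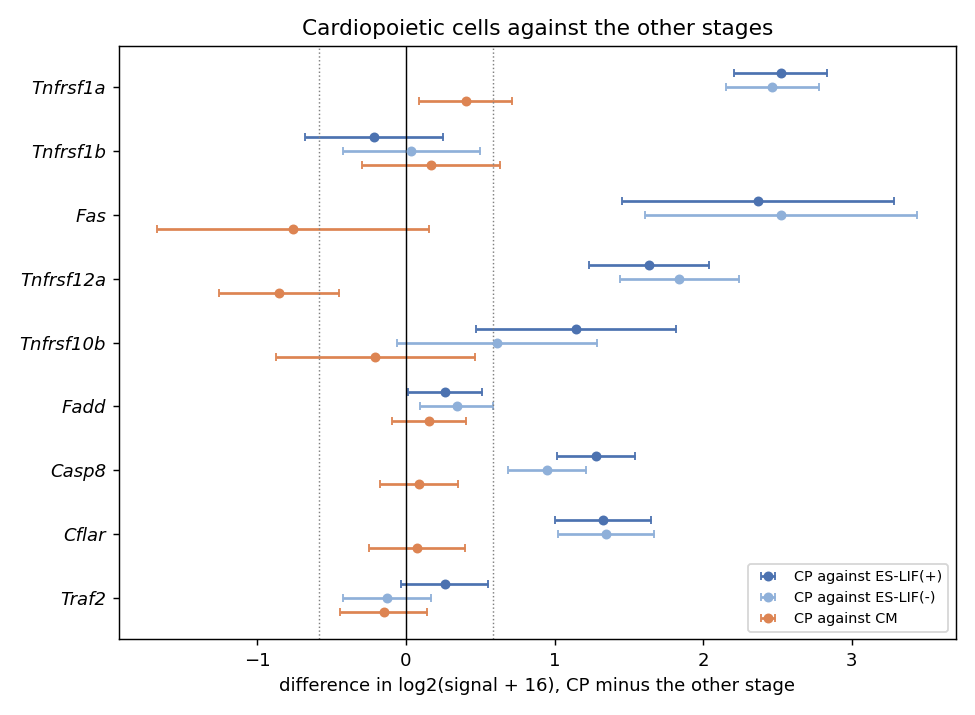
Difference in log2(signal + 16) between CP and each of the other stages for the 9 genes, with 95% confidence intervals from the fit of 3 arrays per stage, and dotted lines at 1.5-fold. Against the stem cell stages Tnfrsf1a reaches 2.52 and 2.47, while against CM the interval of Tnfrsf12a lies wholly below 0 and that of Tnfrsf1a wholly above it.

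Markers of other cell types moved between the same stages. All 6 fibroblast and mesenchyme markers were called higher in CP than in ES-LIF(+), in CP than in ES-LIF(-) and in CM than in ES-LIF(+), and 4 of the 6 were higher in CP than in CM. Macrophage and leukocyte markers summed to 913 to 1069.5 in ES-LIF(+), 1319 to 1717 in CP and 1777 to 2089 in CM. Of the 4 of these that were tested, 1 was called higher in CP than in ES-LIF(+), Lyz2, a lysozyme gene of myeloid cells, which read 86.6 to 143 in ES-LIF(+), 535 to 721 in CP and 806 to 881 in CM (2.25 in CP, adjusted p = 9.62e-08, and 2.67 in CM). Csf1r, the receptor of a macrophage growth factor, was called higher in CM only (0.75, adjusted p = 0.00747). Not all 4 rose, and the lowest difference from ES-LIF(+) among them was -0.55 in CP and -0.45 in CM, neither of them called. Ptprc and Itgam were not tested and had mean signals under 100 in every stage, and Ptprc read 4.3 to 26.3 in ES-LIF(+), 40.0 to 47.4 in CP and 44.2 to 73.3 in CM, without overlap between ES-LIF(+) and either later stage. Endothelial markers summed to 1774 to 2394.5, 1735 to 1936 and 2443 to 3099 in the same stages. The 5 erythroid markers with a probe set summed to 128 to 207 in ES-LIF(+), 315 to 390.1 in ES-LIF(-), 111 to 422 in CP and 748 to 16495 in CM, and of the 3 tested the embryonic globin genes Hbb-bh1 and Hba-x were called higher in CM than in ES-LIF(+) and lower in CP than in CM. CM replicate 3 stood apart, with an Hbb-bh1 signal of 7947 beside 424 and 1812 on the other CM arrays. Without it the counts of the 9 genes were the same in every comparison, and Tnfrsf12a differed between CP and CM by -0.90. Pluripotent cell markers summed to 70133 to 71675 in ES-LIF(+), 45016 to 50065.5 in ES-LIF(-), 56882 to 63038 in CP and 15301 to 21651 in CM. CP thus lay above ES-LIF(-), and 3 of the 6 pluripotent cell markers were called higher and 1 lower in CP than in ES-LIF(-). The part of these cell types in the receptor and caspase-8 results was not tested.

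Ligands of the family were called in both directions. Tnf itself was too dim to be tested, with signals of 11.9 to 36.3 over the 12 arrays, so the transcript gave no reading above the array median beside the TNF-α added to the CP medium. Of 7 tested ligand genes, 2 were higher and 1 lower in CP than in CM, and 1 was higher and 1 lower in CP than in ES-LIF(+). That is 42.9% and 28.6% of the list, beside 19.5% and 32.0% of all genes called in either direction. The 2 higher against CM were 1 without CM replicate 1, and the 1 higher against ES-LIF(+) became 2 without ES-LIF(+) replicate 2 or CP replicate 2, as did the 1 lower without CM replicate 1. Ltb, which encodes lymphotoxin β, the membrane ligand of Ltbr, was lowest in CP, with 41.2 to 53.6 there, 187 to 230.4 in CM and 312 to 564 in ES-LIF(+), a difference of -2.82 from ES-LIF(+) (adjusted p = 8.59e-07) and -1.83 from CM (adjusted p = 1.06e-04). Tnfsf11, the osteoclast factor RANKL, was highest in the stem cells, at 157 to 262 in ES-LIF(+) and 137 to 228 in ES-LIF(-). It read 97.2 to 109.1 in CP and 7.7 to 43.6 in CM (1.87, adjusted p = 0.00112), both below the array median. It passed the filter on dim signals only through the stem cell arrays. Tnfsf9, the 4-1BB ligand, rose from 103 to 214.5 in ES-LIF(+) to 279.5 to 314 in CP (0.97, adjusted p = 0.00493).

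Among 14 other tested receptors of the family, 4 were higher and 0 lower in CP than in ES-LIF(+), and 1 was higher and 1 lower in CP than in CM. Called in either direction, these are 28.6% and 14.3% of the list, beside 32.0% and 19.5% of all genes. The count of 0 lower became 1 without ES-LIF(+) replicate 2. Ltbr, the lymphotoxin β receptor, went from 169 to 304 in ES-LIF(+) to 1454 to 1571 in CP and 1547 to 1692 in CM, a rise of 2.57 in CP (adjusted p = 2.86e-08). Tnfrsf23, a decoy receptor of TRAIL, went from 48.7 to 55.0 in ES-LIF(+) to 362 to 455 in CP (2.67, adjusted p = 7.40e-08). Like Fas, it passed the filter on dim signals only through CP and CM arrays. Ngfr, the p75 neurotrophin receptor, was higher in CP than in CM by 1.02 (adjusted p = 0.00163). Tnfrsf21, the orphan death receptor DR6, was lower in CP than in CM by a difference of -0.60 (adjusted p = 0.00128), which lies just past the 1.5-fold limit and is lost in 5 of its 25 alternatives, among them those without CP replicate 2 or CM replicate 2.

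Of 20 adaptors and enzymes of the receptor complexes, 3 were higher and 3 lower in CP than in ES-LIF(+). Against CM, 1 was higher and 3 lower in CP, and the 1 higher was lost without CM replicate 3. Calls over all genes went in both directions too. Against ES-LIF(+), 18.7% and 13.3% of all genes were called higher and lower in CP, and against CM 10.4% and 9.04%. Pea15a, a death effector domain protein that binds Fadd and caspase-8, rose from 669 to 768 in ES-LIF(+) to 2435 to 2778 in CP (1.88, adjusted p = 7.05e-10) and stood higher again in CM, at 4457 to 4915 (-0.85 for CP against CM, adjusted p = 6.84e-06). Tnfaip3, the NF-κB target A20 that removes ubiquitin from the Tnfrsf1a complex, was lower in CP than in CM by a difference of -1.11 (adjusted p = 8.03e-04), with 240.6 to 286 in CP and 536 to 683 in CM. Against ES-LIF(+), CP differed for Tnfaip3 by 0.56 (adjusted p = 0.039), which is under 1.5-fold. Bag4, which binds the death domain of Tnfrsf1a and keeps it silent, fell by 0.81 in CP against ES-LIF(+) (adjusted p = 3.15e-05).

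Of 17 kinases and NF-κB subunits, 0 were called between CP and CM in either direction, and 1 was higher and 2 lower in CP than in ES-LIF(+), where Relb, an NF-κB subunit of the noncanonical arm, fell by 1.04 (adjusted p = 0.00729) and Tab3, an adaptor of the kinase Tak1, by 0.77. The 1 higher and 2 lower are 5.88% and 11.8% of the list, beside 18.7% and 13.3% of all genes. Between CP and CM, 19.5% of all genes were called in either direction. The count of 1 higher became 3 without ES-LIF(+) replicate 2 and 2 without ES-LIF(+) replicate 1, ES-LIF(-) replicate 1, ES-LIF(-) replicate 3 or CP replicate 1. Of 12 downstream caspases and their inhibitors, 0 were called between CP and CM, beside the same 19.5% (1 was higher without CM replicate 1). Against ES-LIF(+), 1 was higher and 2 lower in CP, 8.33% and 16.7% of the list, beside the same 18.7% and 13.3%. Htra2, a mitochondrial protease that binds inhibitors of apoptosis, rose by 0.98 (adjusted p = 7.70e-05) and Dffb, the nuclease that cuts DNA during apoptosis, fell by 0.81 (adjusted p = 0.00311).

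Of 14 genes of the BCL2 family, which governs the mitochondrial route to apoptosis, 2 were higher and 5 lower in CP than in ES-LIF(+), and 0 were higher and 2 lower in CP than in CM. Called against CM in either direction were 14.3% of the list, beside 19.5% of all genes. Against ES-LIF(+), 14.3% and 35.7% of the list were called higher and lower, beside 18.7% and 13.3% of all genes. The 5 lower became 3 without CP replicate 3, and the 2 higher became 1 without ES-LIF(+) replicate 1, CP replicate 1 or CP replicate 3. Bbc3, which encodes the p53-induced killer PUMA, fell from 1189 to 1377 in ES-LIF(+) to 534 to 647 in CP (-1.06, adjusted p = 1.38e-06). Bok, a pro-apoptotic relative of Bax, was lower in CP than in ES-LIF(+) by a difference of -0.85 and than in CM by -0.70 (adjusted p = 1.18e-04). Bik, another pro-apoptotic member, was lower in CP than in CM by -1.23 (adjusted p = 0.00216). Of 4 necroptosis genes 2 were tested, and neither was called in CP against ES-LIF(+) or CM, beside 32.0% and 19.5% of all genes. Between CP and ES-LIF(+) they differed by -0.39 (adjusted p = 6.08e-04) and -0.21 (adjusted p = 0.304), both under 1.5-fold. Without the filter on dim signals, 1 gene of this list was called lower in CP in each of these comparisons. Median differences of these lists between CP and ES-LIF(+) were 0.19 for ligands, 0.41 for the other receptors, 0.10 for adaptors, 0.27 for kinases and NF-κB subunits, -0.32 for caspases and -0.21 for the BCL2 family, beside 0.04 over all genes, and median centring lowers each value by the shift given above.

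**Figure D4:**
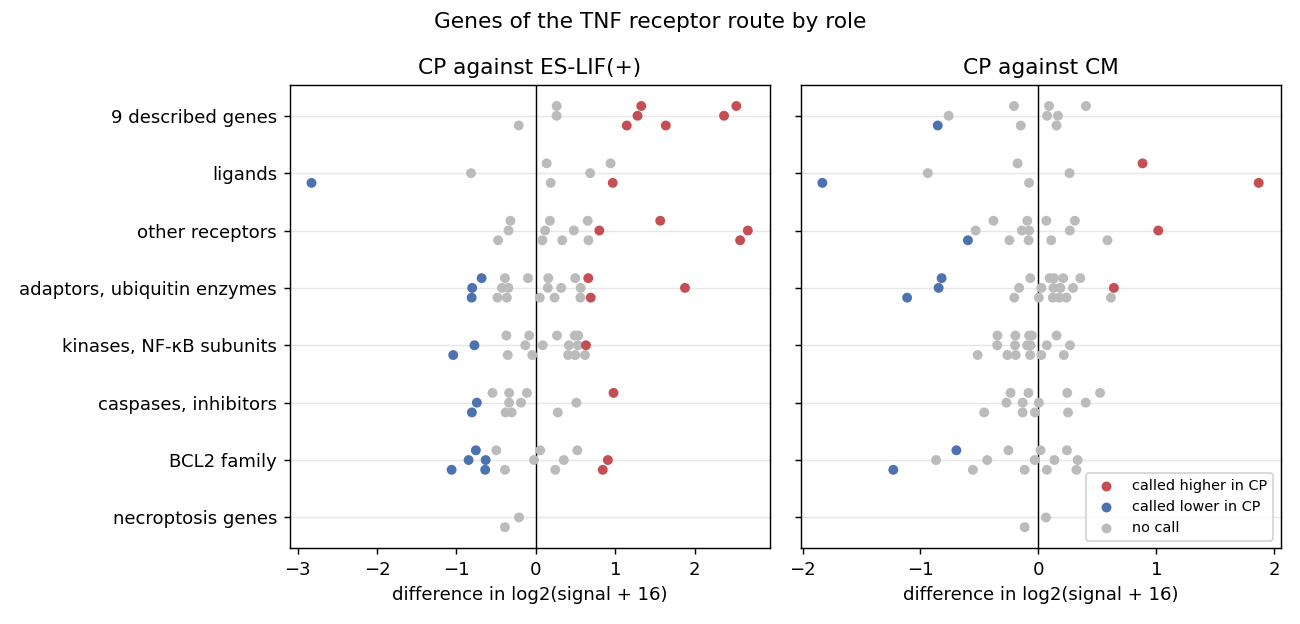
Difference in log2(signal + 16) of every tested gene of the route by role, for CP against ES-LIF(+) (left) and CP against CM (right), coloured by call, with points offset vertically only to keep them apart. Among the 9 genes described here 6 are called higher on the left and 1 lower on the right, while in the BCL2 family 2 are called higher and 5 lower on the left.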

How the data were processed

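Expression of 12 Affymetrix Mouse 430 2.0 arrays, 3 per stage, was taken as the linear signal intensity that the authors computed with MAS5 (Microarray Suite 5.0) and deposited, scaled by them per array. Detection flags were not used here, so no statement is made about presence or absence of a transcript. Groups follow the sample labels. Of 45101 probe sets, 64 controls were set aside, and of the remaining 45037 the platform annotation gives 34945 with 1 gene, 932 with several and 9160 with none. Signals were analysed as log2(signal + 16) without further scaling. A probe set was tested when it exceeded its array's median on at least 3 arrays, which 26083 did. The 12 arrays were fitted jointly with limma 3.58.1 (R 4.3.3), using moderated variances that follow the mean intensity, and p values were adjusted by Benjamini-Hochberg over all tested probe sets. The moderated F test takes the place of the study's one-way analysis of variance, which was an alternative. Probe sets were called at an adjusted p below 0.05 together with more than a 1.5-fold difference. Fold changes are on the log2(signal + 16) scale, which understates those of dim genes, and the number of arrays limits precision. The fit was tested on simulated data. The members and gene lists were chosen with earlier results of these data known. Of each list, up to 2 called genes without overlap of groups and with the largest difference in CP against CM, and up to 2 in CP against ES-LIF(+), are named, beside Tnf and Ltbr. Promoter sequences are from RefSeq, build GRCm38.p6, with 8 of the 9 tested genes matched by symbol. Same-numbered arrays of different stages did not deviate together (correlations of deviations -0.047 to 0.095), so replicate numbers were not used to pair arrays.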

Additional observations from a re-analysis of the deposited data

How the results depend on the processing

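Each comparison was repeated with other scalings, pseudocounts, filters, probe set choices, fold rules and arrays in the fit. The counts of genes called higher in CP and CM against the stem cell stages kept within 1.5 times of the values given. Between CP and CM, genes called higher went from 0 to 1 without a fold limit, and genes called lower from 1 to 2 with a pseudocount of 64 or with only the 6 arrays compared. Between CM and ES-LIF(+), genes called lower went from 0 to 1 after median centring or quantile normalization. The share of all genes called lower there went from 23.9% to 35.1% and 27.5%. With replicate number as a block, the number of genes called between CP and CM was 0 higher and 1 lower, and this block changed no other call of the 9 genes; the numbers carry no pairing that the labels state. Sample numbers fall in separate ranges, taken as arrays deposited together, and the first range holds no CP array. With these ranges as a block, no call of the 9 genes changed. Tnfrsf21 lost its call between CP and CM under this block (-0.58, adjusted p = 0.00505). Differences that changed sign were all from values not called. With the mean over probe sets, Cflar read -0.15 between CP and CM and Tnfrsf1b 0.12 between CP and ES-LIF(+). After median centring, Fadd and Traf2 each read -0.023 between CP and ES-LIF(+), Tnfrsf1b -0.23 between CP and ES-LIF(-) and Fadd -0.21 between CM and ES-LIF(+). After quantile normalization, Tnfrsf1b read -0.27 between CP and ES-LIF(-) and Fadd -0.12 between CM and ES-LIF(+). Leaving out ES-LIF(-) replicate 3 or CP replicate 3 turned Tnfrsf1b between CP and ES-LIF(-) to -0.22 and -0.03, and over the arrays left out in turn this value ran from -0.22 to 0.17. The cause of these changes was not tested. Among the named genes of the pathway lists, the calls lost under an alternative were those of Tnfrsf21 and, with the mean over probe sets, of Ngfr (0.51), Bag4 (-0.40) and Dffb (-0.34). Counts of the lists moved more, as did those of all genes where the scaling was changed. After median centring, genes called lower in CP against ES-LIF(+) went from 3 to 8 for adaptors, from 2 to 7 for downstream caspases and inhibitors, from 2 to 4 for kinases and NF-κB subunits and from 1 to 2 for ligands, and genes called higher went from 3 to 1 for adaptors (quantile normalization too) from 2 to 0 for the BCL2 family and from 1 to 0 for kinases and NF-κB subunits. Over all genes, median centring took the share called lower in CP against ES-LIF(+) from 13.3% to 27.4%. It took the share called higher from 18.7% to 12.1%, and quantile normalization took it to 14.5%. With the mean over probe sets, BCL2 family genes called lower went from 5 to 3. Requiring a signal above the median on all 12 arrays took ligands called between CP and CM from 3 to 0, and other receptors called higher in CP against ES-LIF(+) from 4 to 2. Without a fold limit, kinases and NF-κB subunits called higher in CP against ES-LIF(+) went from 1 to 7, and downstream caspases and inhibitors called lower from 2 to 8. Shares of all genes were computed only for the changes of scaling, so the other counts have none beside them. Fas and Tnfrsf10b lie near or below the array median in the stem cells, which limits the precision of their folds, and neither has a value when a probe set must exceed the median on all 12 arrays.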
